A study of Mus musculus with 2 samples.

Results

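Of the miRNAs of striated muscle, those considered here are read by the array under the names mmu-miR-206, mmu-miR-133b, mmu-miR-1a and mmu-miR-133a (mmu stands for mouse and is left out from here on). They were chosen by name, by a rule that uses no measured value, but with earlier results of these data known. They make up 4 of the 1080 miRNAs on the array. Each is read by 2 probes. MicroRNAs were measured in the medial mandibular arch, from which the tongue forms, of embryos of the ICR mouse strain at the embryonic stages E11.5 and E10.5. RNA of 40 pooled embryos per stage was hybridised to 1 single-colour array per stage. There is therefore no replicate of either stage, no difference was tested, and the errors given are standard deviations (SD) over the repeated spots of a probe within an array. The dissected tissue holds epithelium, mesenchyme, vessels and blood as well as any myoblasts, so in these pools more cells that express a miRNA and more of it per cell cannot be told apart. The question the design poses is which miRNAs accompany the onset of myoblast differentiation between the stages. The arrays read miRNAs alone, so that onset itself was not measured.

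As background, miR-206, miR-1 and miR-133 are small regulatory RNAs whose genes are activated in muscle by myogenic transcription factors such as MyoD and myogenin. They repress messenger RNAs through pairing of their seed, bases 2 to 8 of the mature strand. miR-1 and miR-133 are made in both skeletal and cardiac muscle, while miR-206 and miR-133b are characteristic of skeletal muscle. In mouse myoblasts miR-1 and miR-206 promote differentiation, with Hdac4 a known target of miR-1, and miR-133 has been linked to proliferation through Srf. The tongue muscle arises from myoblasts that migrate into the arch from the occipital somites.

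The mature sequences of miR-206 and miR-133b are shown because the seed sets the family and the probes read inward from the other end. They are those of RefSeq (GRCm38.p6, plus strand), 5′ to 3′, with the seed in capitals.
miR-206, chr1:20679055-20679076: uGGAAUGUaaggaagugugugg
miR-133b, chr1:20682834-20682855: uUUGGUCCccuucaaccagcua
The 2 seeds differ. That of miR-206 was found letter for letter in the stretch of miR-1a that its longer probe targets. The sequences of miR-1a and miR-133a are not shown here.

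The probes are DNA strands complementary to the miRNA from the end opposite the seed inward, and they can reach into the seed. The 2 probes of each miRNA differ by 1 base in length. They are shown because detection differed between the lengths, as described further on. In the deposited files they read, 5′ to 3′ and all in lower case:
miR-206, 16 bases: ccacacacttccttac
miR-206, 15 bases: ccacacacttcctta
miR-133b, 19 bases: tagctggttgaaggggacc
miR-133b, 18 bases: tagctggttgaaggggac
The miR-206 probes pair with bases 7 to 22 and 8 to 22 of the mature strand, so they hold 2 bases and 1 base of the seed. The miR-133b probes pair with bases 4 to 22 and 5 to 22, so they hold 5 and 4 bases of the seed. The files place the longer probes, on mm9, at chr1:20669143-20669157 for miR-206 and at chr1:20672919-20672936 for miR-133b, each span 1 base shorter than the probe itself.

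All 4 miRNAs were detected at E11.5 and none at E10.5. Detection of a probe required the scanner software's flag for well above background on 50% or more of its spots, and detection of a miRNA required 1 such probe. Over the whole array 62 of 1080 miRNAs, 5.74%, were detected at E11.5 only, 7 (0.648%) at E10.5 only and 137 at both. Of the 8 probes of the 4 miRNAs, 6 passed detection at E11.5 and 0 did at E10.5. Of all 2780 miRNA probes, 345 passed at E11.5 and 232 at E10.5. Over the spots of the 8 probes without an outlier flag, 111 of 153 were well above background at E11.5 and 0 of 156 at E10.5.

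miR-206, the skeletal muscle member that shares its seed with miR-1a, was detected by both of its probes. The 20 spots of the 16-base probe ran from 251 through a median of 279.5 to 315 intensity units at E11.5, and from -15.2 through -1.97 to 8.05 at E10.5. The mean was 284 ± 18.1 at E11.5 and -1.87 ± 5.92 at E10.5 (SD, n = 20 spots each). The lowest E11.5 spot thus lay 243 units above the highest E10.5 spot, and every E11.5 spot was well above background. The 15-base probe read 124 to 148 with a median of 134 at E11.5, against -9.04 to 3.44 with a median of -3.84 at E10.5. Its mean was 135 ± 6.67 at E11.5 (SD, n = 15 spots) and -4.04 ± 2.94 at E10.5 (SD, n = 19 spots). At E11.5 5 of its 20 spots carried an outlier flag, and with them the spots ran from 98.8 to 157 around an almost equal mean of 134.6. At E10.5 both probes lay under the level of most negative control spots, of which 951 of 1000 reached the mean of the longer probe and 978 that of the shorter.

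miR-133b, whose gene lies beside that of miR-206, was likewise read by both probes. The 19-base probe ran from 182 through a median of 219.6 to 257 at E11.5, and from 2.16 through 7.74 to 18.4 at E10.5. Means were 219.8 ± 18.6 (SD, n = 20 spots) at E11.5 and 7.96 ± 4.57 (SD, n = 19 spots) at E10.5. The stages did not overlap, and the E10.5 level sat in the middle of the negative controls, 492 of 1000 of which reached it. At E10.5 1 further spot of this probe stood at 60.6. It had an outlier flag and was left out. The 18-base probe ran from 72.8 through 84.1 to 96.2 at E11.5, and from -4.29 through 6.36 to 15.1 at E10.5. Its mean was 84.3 ± 6.94 at E11.5 and 6.32 ± 4.72 at E10.5 (SD, n = 19 spots each), again without overlap.

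miR-1a, the form of miR-1 in mouse that both skeletal and cardiac muscle make, was detected by its longer probe alone. The 21-base probe ran from 121 through 131 to 144 at E11.5 and from -3.41 through 5.62 to 13.3 at E10.5. Its means were 132 ± 6.71 (SD, n = 20 spots) at E11.5 and 5.61 ± 3.93 (SD, n = 19 spots) at E10.5. All 20 spots were well above background at E11.5 and the stages were apart by 108 units. The 20-base probe, 1 base shorter, ran from 3.03 through 14.04 to 22.3 at E11.5 and from -8.81 through -1.48 to 6.82 at E10.5. It had a mean of 13.3 ± 5.48 at E11.5 (SD, n = 19 spots), against -1.59 ± 4.68 at E10.5 (SD, n = 20 spots). No spot of it was well above background at either stage and the 2 ranges overlapped.

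miR-133a, the other product of the miR-1 loci, was the only member whose detection depended on the rule. The 18-base probe ran from 27.5 through 36.5 to 47.0 at E11.5, and from -2.27 through 5.67 to 15.2 at E10.5. Means were 35.6 ± 5.62 at E11.5 and 5.91 ± 5.12 at E10.5 (SD, n = 20 spots each). At E11.5 17 of its 20 spots were well above background, so a rule that asks for every spot did not count it. The ranges were still apart, by 12.4 units. The 17-base probe ran from -0.669 through 8.02 to 19.9 at E11.5 and from 0.367 through 7.06 to 18.7 at E10.5. Its means of 8.998 ± 5.50 at E11.5 and 7.55 ± 5.23 at E10.5 (SD, n = 20 spots each) differed by less than the spot SD.

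**Figure D1:**
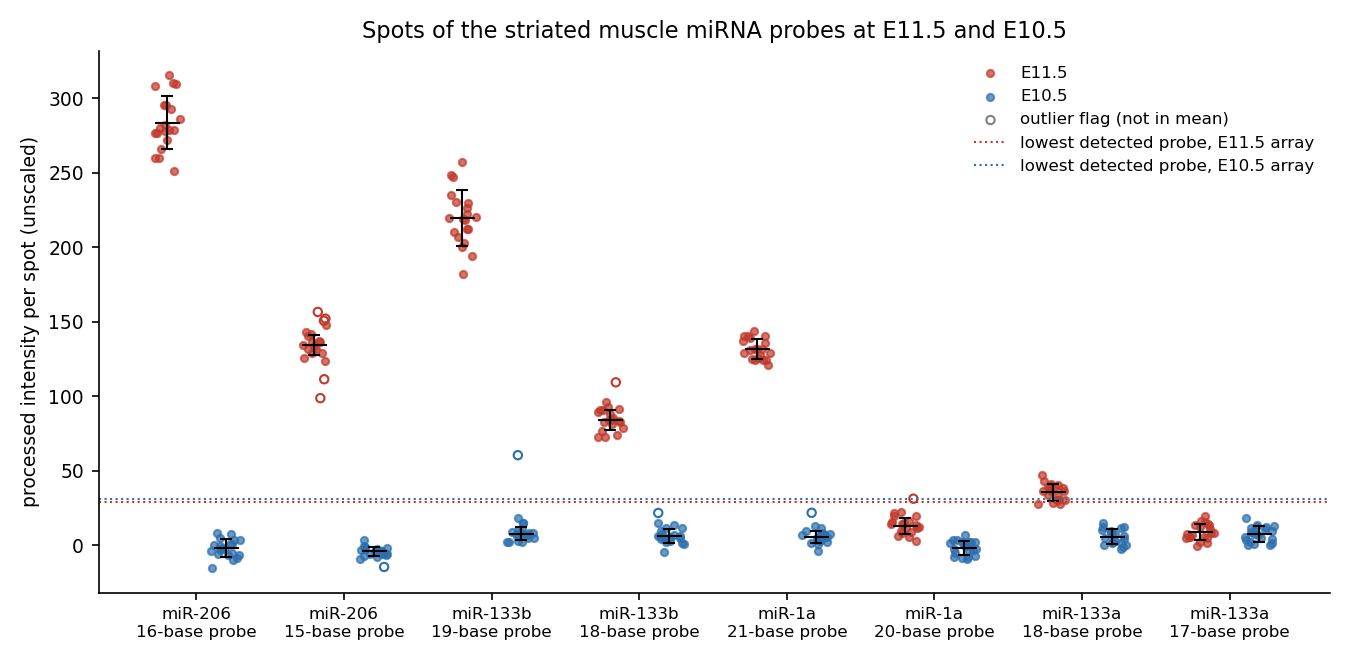
Processed intensity of each spot (vertical axis, unscaled units) for the 8 probes of the 4 miRNAs, with E11.5 in red to the left of E10.5 in blue. Black bars are means with SD over spots without an outlier flag, open circles are spots with an outlier flag, and dotted lines mark the lowest detected probe of each array. In 6 probes every E11.5 spot used lies above every E10.5 spot used, and the 20-base miR-1a and 17-base miR-133a probes overlap.

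In 6 of the 8 probes every E11.5 spot lay above every E10.5 spot, outlier flags aside. The same held for 306 of the 2780 miRNA probes, 11%, and for 282 of the 345 probes detected at E11.5, 81.7%. The reverse, every E10.5 spot above every E11.5 spot, held for 0 of the 8 probes and for 21 of the 2780, 0.755%. Lack of overlap was thus common among detected probes before any scaling. The background that the software subtracted averaged 89.7 to 90.6 units over the 8 probes at E11.5 and 95.6 to 97.1 at E10.5. More was thus taken off at E10.5, and the part of this in the stage differences was not tested. Negative control spots averaged 5.88 ± 5.60 at E11.5, against 7.87 ± 6.16 at E10.5 (SD, n = 1000 spots each), and the flag for well above background was set on 2 of them at E11.5, against 4 at E10.5.

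For each of the 4 miRNAs the longer probe was detected at E11.5. miR-206 and miR-133b were read by both lengths, and miR-1a and miR-133a by the longer alone. The array holds 736 miRNAs with 2 probes that differ by 1 base. At E11.5 both probes were detected for 125 of them, the longer alone for 44, the shorter alone for 1 and neither for 566. The longer-only pattern of miR-1a and miR-133a was thus the usual form of partial detection on this array.

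The probes of miR-1a (20 and 21 bases) and miR-133a (17 and 18 bases) each map to a site on chromosome 2 and another on chromosome 18, so neither miRNA's value can be assigned to 1 of its 2 genes. On chromosome 2 of mm9 the longer probes lie at 180123802 to 180123822 for miR-1a and at 180133146 to 180133163 for miR-133a. Between the longer miR-133b and miR-133a probes 1 of 18 bases differs, and between those of miR-206 and miR-1a 4 of 16. miR-133a and miR-133b are the only members whose probes share a run of 14 bases with a probe of another miRNA, and they share it with each other. How far each reads the other's miRNA was not tested. As measured, the 17-base miR-133a probe differed between the stages by 1.45 units and the 18-base one by 29.7, while the miR-133b probes differed by 77.9 (18 bases) and 212 (19 bases).

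Because no member was above background at E10.5, its change has a lower bound and no estimate. Intensities were scaled, on either array, to the 75th percentile of the 218 probes that passed detection on both. The bound is the E11.5 value over the higher of the dimmest detected E10.5 probe and the probe's own E10.5 value. The E11.5 array was the brighter by a median log2 ratio of 1.20 over those 218 probes, and scaling took 1.31 off each log2 difference. On this scale the 16-base probe put miR-206 at least 3.69-fold higher at E11.5, and the 15-base probe at least 1.75-fold. miR-133b was at least 2.86-fold higher by the 19-base probe and at least 1.097-fold by the 18-base probe, and miR-1a at least 1.71-fold by its detected probe. The bounds from the 2 probes of miR-206, and from those of miR-133b, thus differed in size. miR-133a had no bound above 1-fold, since its E11.5 level as scaled was below the dimmest detected E10.5 probe. Without scaling the bounds by the longer probe were 9.18-fold for miR-206, 7.11-fold for miR-133b, 4.26-fold for miR-1a and 1.15-fold for miR-133a.

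The 4 miRNAs gave 3 scaled bounds above 1-fold, where 12 of 1080 miRNAs, 1.11%, had one. They gave 2 of at least 2-fold, where 3 of 1080, 0.278%, did, the other being let-7i. Over all 62 miRNAs detected at E11.5 only, the median log2 bound was at 0, the limit that stands for no bound, and it was 1.15 over the 4. With normexp correction on the raw spot and local background signals and its offset of 50, changed together, the log2 bounds were 0.74 for miR-206 and 0.45 for miR-133b, and miR-1a had none above 1-fold.

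**Figure D2:**
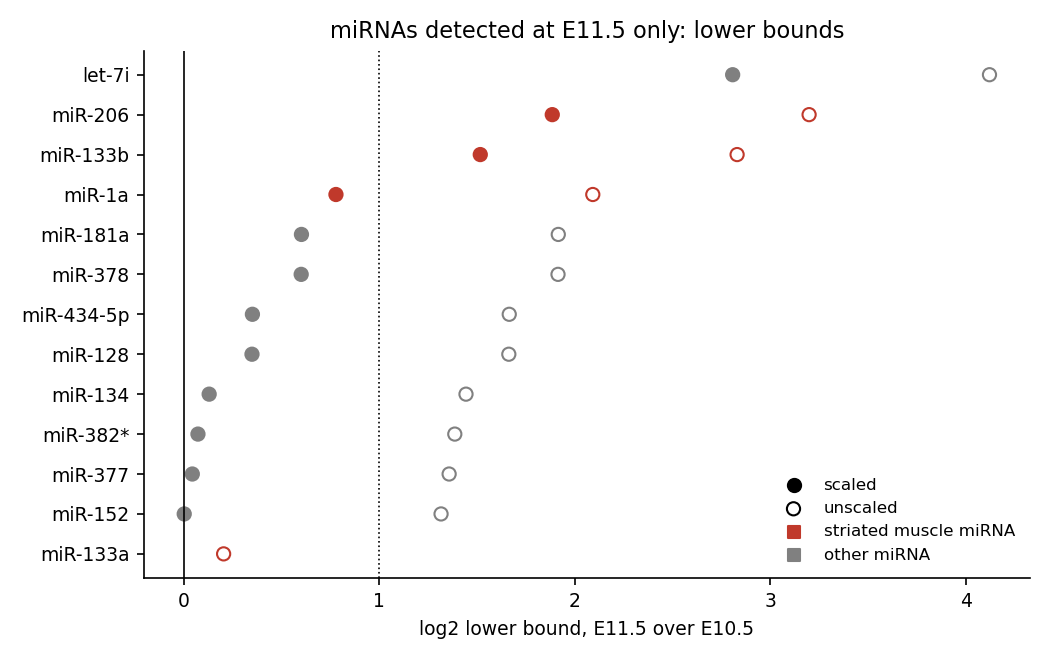
Log2 lower bound of E11.5 over E10.5 (horizontal axis) for the miRNAs detected at E11.5 only that have a scaled bound above 1-fold, and for miR-133a. Filled points are scaled, open points unscaled, red marks the striated muscle miRNAs, and the lines stand at no difference and at 2-fold. miR-206 and miR-133b lie past 2-fold on both scales, miR-1a on the unscaled one, and miR-133a has no scaled point.

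The 9 other miRNAs with a scaled bound above 1-fold had the pattern most like that of the 4, by the log2 bound over these 2 arrays. They were let-7i (at least 7.001-fold), miR-181a (1.52), miR-378 (1.52), miR-434-5p (1.28), miR-128 (1.27), miR-134 (1.09), miR-382* (1.05), miR-377 (1.03) and miR-152 (1.001). let-7i had 566 ± 10.3 (SD, n = 16 spots) at E11.5 and 32.5 ± 7.98 (SD, n = 19 spots) at E10.5, so its bound was taken against its own E10.5 value. In mouse myoblasts miR-378 has been found to target the MyoD antagonist MyoR, and miR-181 to target Hoxa11. The probe that gave the bound read 116 ± 10.1 at E11.5 and 11.1 ± 5.28 at E10.5 for miR-378 (SD, n = 20 spots each). For miR-181a it read 117 ± 9.95 (SD, n = 19 spots) at E11.5 and 29.2 ± 6.72 (SD, n = 20 spots) at E10.5, close under the limit of detection.

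The E10.5 levels of the 4 miRNAs were also set against the negative controls of that array. Of the 4 bound probes, those of miR-206, miR-1a and miR-133a had E10.5 means at or below the negative control mean of 7.87, and that of miR-133b was at 7.96. Of the bound probes of the other 58 miRNAs detected at E11.5 only, 4 were at or below it, and they ran from 4.39 through a median of 17.6 to 32.5 at E10.5. The miR-206 bound probe was the only 1 of the 62 with an E10.5 mean below 0. This count was made after the values were seen and has no test. Over all 2780 miRNA probes the median E10.5 mean was -0.132, so a mean below 0 was common on the array.

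**Figure D3:**
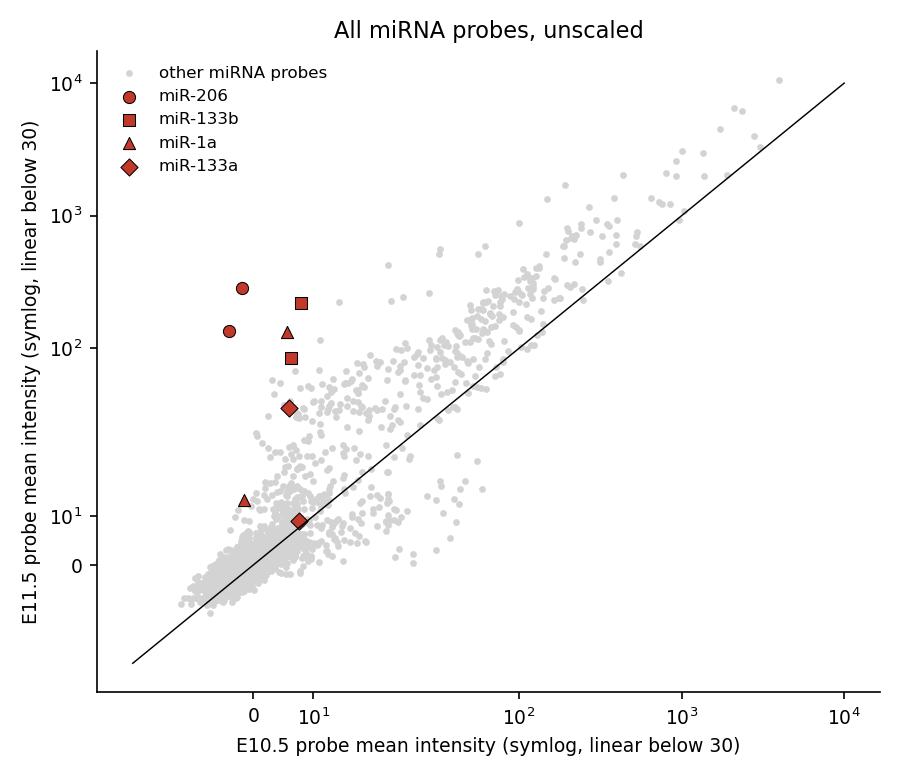
Mean processed intensity of each of the 2780 miRNA probes at E11.5 (vertical axis) against E10.5 (horizontal axis), unscaled, on axes that are linear below 30 and logarithmic above, with the line of equal intensity. Red symbols are the 8 probes of the 4 miRNAs. Their 6 detected probes lie above the line of equal intensity at E10.5 values below 10, a region that holds probes of other miRNAs too. Of these, the 14-base miR-3107 probe (55.1 for E11.5, 4.39 for E10.5) lies higher than the 18-base miR-133a probe. A let-7b probe (67.2 for E11.5, 6.97 for E10.5) does so as well. The 17-base miR-133a probe lies within the cloud of undetected probes near the line.

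The normexp values give a number for every probe, but for a probe not above background that number is set by the correction and its offset of 50, so those of the members are no estimates of a change. Before scaling the log2 differences, E11.5 minus E10.5, ran from 0.02 (17-base miR-133a probe) to 2.36 (16-base miR-206 probe), with a median of 0.02 over all 2780 probes. After scaling that median was -1.04. Scaled values above 0 were left for 4 of the 8 member probes, both of miR-206 (1.30 and 0.54), the longer miR-133b probe (0.81) and the longer miR-1a probe (0.34). The other 4 were below 0: the shorter miR-133b probe (-0.06), the shorter miR-1a probe (-0.79) and both miR-133a probes (-0.60 and -1.05).

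The scanner software's total gene signal, summed over the probes of a miRNA, gave a second reading. It was 118 ± 9.22 at E11.5 and -1.67 ± 2.52 at E10.5 for miR-206, where the error is that of the software's own model. For miR-133b it was 86.0 ± 7.10 at E11.5 and 4.04 ± 2.54 at E10.5, and for miR-1a 41.0 ± 4.45 at E11.5 and 1.14 ± 2.53 at E10.5. miR-133a had 12.6 ± 2.62 at E11.5 and 3.80 ± 2.54 at E10.5. All 4 carried the gene detection flag at E11.5 and none at E10.5. Among all 1080 miRNAs, 68 carried this flag on the E11.5 array only, 19 on the E10.5 array only and 169 on both. The deposited value table listed 84.0 for miR-206, 60.0 for miR-133b, 26.6 for miR-1a and 5.08 for miR-133a at E11.5, and 0.1 for each at E10.5. There 0.1 stands for miRNAs without the flag, so it is no measured level and no fold was taken against it.

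In the RefSeq annotation of GRCm38.p6, the chromosome 1 genes Mir206 and Mir133b lie 3686 bases apart within Lincmd1, a long noncoding RNA gene of 13077 bases that is expressed in differentiating mouse myoblasts. Mir1a-1 and Mir133a-2 are 9254 bases apart on chromosome 2 within the noncoding host gene Mir1a-1hg. The arrays measured neither host transcript.

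The promoters of the 2 host genes are shown because each gene holds a pair of the miRNAs described. For Mir1a-1hg the arrays do not tell its products from those of the other gene copies. Each window runs from 250 bases before to 50 after the start of the gene (RefSeq, GRCm38.p6, plus strand). Capitals mark the E-box CANNTG, the site of MyoD and other basic helix-loop-helix factors, which reads as CANNTG on both strands.
Lincmd1, chr1:20669632-20669931: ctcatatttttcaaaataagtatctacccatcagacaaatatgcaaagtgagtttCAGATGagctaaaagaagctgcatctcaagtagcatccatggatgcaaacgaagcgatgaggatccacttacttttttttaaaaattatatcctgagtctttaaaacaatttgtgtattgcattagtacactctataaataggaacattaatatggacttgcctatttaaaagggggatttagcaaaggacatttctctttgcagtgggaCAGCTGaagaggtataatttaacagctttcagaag
Mir1a-1hg, chr2:180385354-180385653: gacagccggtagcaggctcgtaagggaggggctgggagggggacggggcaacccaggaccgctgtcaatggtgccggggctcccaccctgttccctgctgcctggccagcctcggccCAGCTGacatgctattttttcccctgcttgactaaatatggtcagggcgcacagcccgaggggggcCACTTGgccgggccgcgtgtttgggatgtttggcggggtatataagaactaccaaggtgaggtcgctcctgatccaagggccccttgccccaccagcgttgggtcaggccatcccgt
Each window held 2 matches, of which 1 was CAGCTG. In Lincmd1 the CAGCTG begins 15 bases after the gene's first base, and in Mir1a-1hg 133 bases before it. Of 32851 promoter windows of this length 72.3% held CANNTG and 16.3% held CAGCTG, so a match is common and says nothing of binding.

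Of 15 other miRNAs of striated muscle on the array, 1 passed detection at E11.5 and 0 did so at E10.5. Of all 1080 miRNAs, 199 (18.4%) passed at E11.5 and 144 (13.3%) at E10.5, so most miRNAs were not detected. The passenger strands of the 4 miRNAs, cut from the same precursors and usually degraded, were detected for 0 of 5 at either stage. Their 13 probes averaged -3.72 to 13.4 at E11.5 and between -4.01 and 7.44 at E10.5. The highest was the 20-base probe of miR-133a*, at 13.4 ± 5.06 at E11.5 and 2.31 ± 4.56 at E10.5, and its stages overlapped. The miRNAs miR-208a, miR-208b and miR-499, grouped here as cardiac and encoded in myosin heavy chain genes, were on the array with both arms. None of these 6 was detected: their 12 probes averaged -2.61 to 3.73 at E11.5 and -4.04 to 1.60 at E10.5, and 0 of 221 spots at E11.5 and 0 of 228 at E10.5 were well above background. The summed level of the brightest probe of each was 1.96 at E11.5 and -5.64 at E10.5.

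Of 4 further miRNAs of skeletal muscle or its relatives on the array, miR-1b-3p, miR-1b-5p and miR-486* were not detected at either stage. miR-3107, whose gene carries the synonym mir-486b in RefSeq, was detected at E11.5 only. Its 14-base probe averaged 55.1 ± 7.59 at E11.5 and 4.39 ± 4.75 at E10.5 (SD). It had no scaled bound above 1-fold. Its 13-base probe was not detected, at 24.9 ± 5.48 with 3 of 20 spots well above background, against 1.47 ± 3.39 at E10.5.

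**Figure D4:**
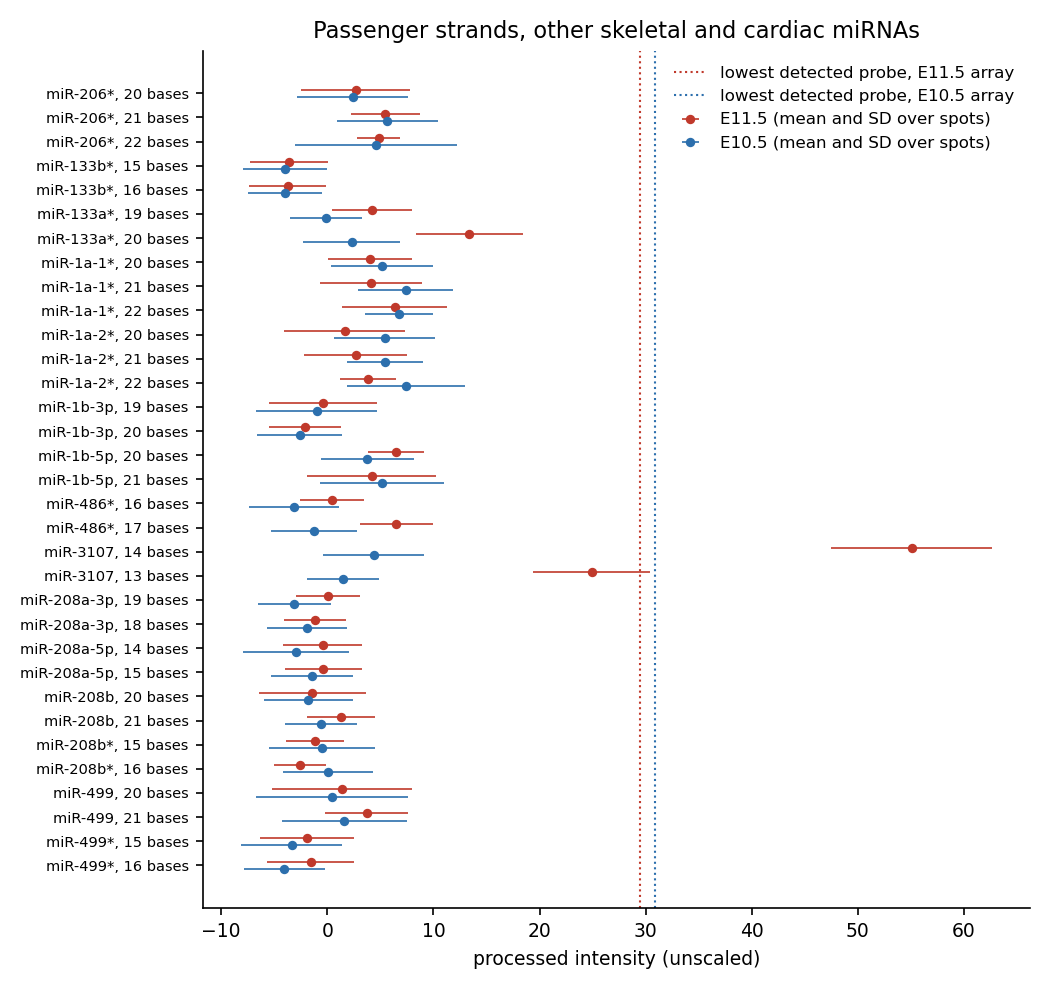
Mean processed intensity (horizontal axis, unscaled units) with SD over spots for the 33 probes of the passenger strands, other skeletal and cardiac miRNAs, E11.5 in red above E10.5 in blue. Dotted lines mark the lowest detected probe of each array, at 29.5 (E11.5) and 30.9 (E10.5). Only the 14-base miR-3107 probe passes its line at E11.5, and none does at E10.5.

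miRNAs that are not specific to muscle but act on myoblasts were a different case. The list holds 22, of which miR-199a-3p and miR-214 are also mesenchymal markers. Of the 22, 11 were detected at both stages, 3 at E11.5 only (miR-181a, miR-378 and miR-351), 0 at E10.5 only and 8 at neither. The share detected at E11.5 only was 13.6%, against 5.74% over the array. Over the array, however, 874 of 1080 miRNAs were detected at neither stage, 62 at E11.5 only and 137 at both. Among miRNAs detected at E11.5, the share at E11.5 only was thus lower on the list than over the array. Of the 11, 9 were higher and 2 lower at E11.5 as scaled, none by 2-fold. Of all 137 miRNAs detected at both stages, 65 were higher and 72 lower as scaled. The median log2 difference was 0.17 for the 11 and -0.07 for all 137. Without scaling the medians were 1.48 for the 11 and 1.24 for all 137. The highest was miR-503 at 0.62 scaled and 1.94 unscaled, which with miR-322 promotes cell cycle exit of mouse myoblasts through Cdc25a. The lowest was miR-181b at -0.33 scaled and 0.99 unscaled. miR-27b, which represses Pax3 in mouse muscle progenitors, was at 0.61 scaled and 1.92 unscaled. The count of higher members ran from 6 with the total gene signal or detection by every spot to 11 with no scaling.

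The tissue could be read from other markers. Of 5 mesenchymal miRNAs on the array, miR-199a-3p, miR-199a-5p and miR-214 were detected at both stages, miR-143 at E11.5 only (68.9 at E11.5 and 10.96 at E10.5) and miR-145 at neither. The scaled differences of the 3 ran from 0.07 for miR-214 to 0.28 for miR-199a-5p, with a median of 0.08, against 1.39 without scaling. With the total gene signal, the gene detection flag or every spot required, 2 of the 3 were lower, with miR-214 at -0.08, -0.05 and -0.06. Of 7 epithelial miRNAs 4 were detected at both stages and all 4 were lower at E11.5 as scaled, from -0.85 for miR-205 to -1.59 for miR-200c. Over the array 72 of the 137 miRNAs detected at both stages were lower as scaled. Without scaling 2 of the 4 were higher and 2 lower, with miR-205 at 0.46. Of the other 3, miR-203 passed detection at E11.5 alone (34.04 at E11.5 and 20.6 at E10.5), and miR-200a and miR-141 at neither stage. The endothelial miR-126-3p (-0.81 scaled, 0.50 unscaled) and the erythroid miR-451 (-0.60 scaled, 0.71 unscaled) were detected at both stages. The other miRNA of each list was detected at neither stage. These were the endothelial miR-126-5p (12.2 at E11.5 and 12.5 at E10.5) and the erythroid miR-144 (3.54 at E11.5 and 1.69 at E10.5). Of 3 neural miRNAs, miR-124 and miR-9 were not detected at either stage and miR-128 was detected at E11.5 only. Among 4 miRNAs of leukocytes 1, miR-223, passed detection, at E11.5 only. The summed levels of the brightest probes, unscaled, were 18210 at E11.5 and 6731 at E10.5 for mesenchyme, 792 at E11.5 and 718 at E10.5 for epithelium, and 461 at E11.5 and 329 at E10.5 for endothelium. For erythroid cells they were 152 at E11.5 and 93.1 at E10.5, for leukocytes 52.9 at E11.5 and 35.3 at E10.5, and for the neural list 101 at E11.5, against a sum of 22.8 at E10.5. The part of these cell types in the result for the 4 muscle miRNAs was not tested.

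The size of the bounds varied with the processing. Over 14 settings of scaling, background, detection and summary, including the one reported, miR-206 had a bound above 1-fold in 14 and of at least 2-fold in 13, and miR-133b in 14 and 12. miR-1a had one above 1-fold in 13 of 14, and miR-133a in 3 of the 13 in which it was detected.

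**Figure D5:**
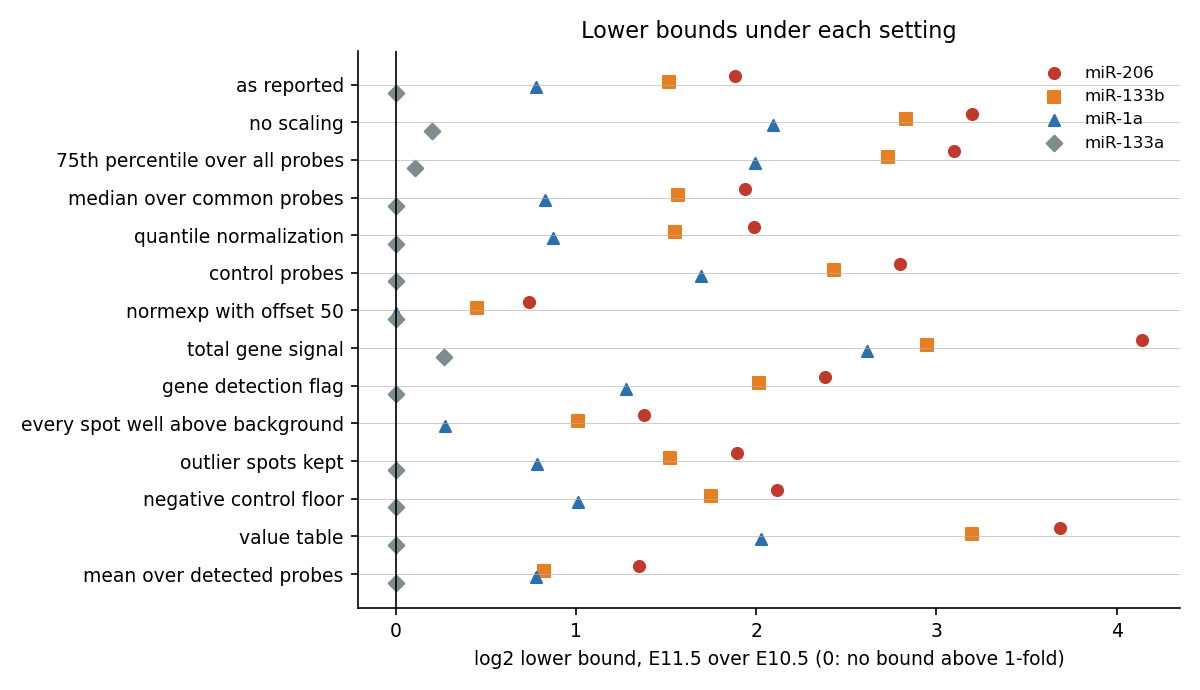
Log2 lower bound of E11.5 over E10.5 (horizontal axis) for the 4 miRNAs under the reported and 13 other settings (rows), with 0 for no bound above 1-fold and no point for miR-133a where it was not detected. The bounds run from 0.74 to 4.14 for miR-206, from 0.45 to 3.20 for miR-133b, from 0 to 2.61 for miR-1a and from 0 to 0.27 for miR-133a.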

How the data were processed

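Both scanner files hold Agilent Feature Extraction output: the intensity of each spot after background subtraction and spatial detrending, deposited without normalization between arrays, with 0 or 1 flags, per the file headers. Feature Extraction is given as version 10.7.1.1 in the headers, with mm9 as the build and array design 031184, and as 9.5.1.1 in the submitters' processing notes. In the deposited value table each miRNA has 1 intensity, whose normalization is not given in the sources used here. Both its columns end at 3256 and hold 0.1 where the gene detection flag is absent. Its column medians are 0.1 and 0.1.

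Spots with an outlier flag (2118 of 43200 at E11.5 and 2058 at E10.5) were left out, and the rest were averaged per probe. No spot was saturated. The brightest detected probe gives a miRNA's bound, and differences at both stages are means over shared probes. The text names every member probe, muscle miRNAs detected at either stage, miRNAs at E11.5 only with a scaled bound above 1-fold, the highest and lowest of each list, and members behind counts of 5 or fewer. miR-27b was added after its value was seen. The members and lists were chosen with earlier results of these data known. Steps were run on simulated data in which the raised miRNAs lay far above the detection limit. Dim miRNAs such as miR-133a were thus not covered. The number of arrays limits the precision. Both arrays lie on the same slide, so slide could not act as a block. Of the list names, miR-486 and miR-199b were not on the array under those names.

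Normexp was run in limma 3.58.1 (R 4.3.3), and all else in Python 3.11.15 with scipy 1.17.1, pandas 2.3.3, numpy 2.4.6 and matplotlib 3.10.9.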

Additional observations from a re-analysis of the deposited data

How the results depend on the processing

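All 4 miRNAs were detected at E11.5 only under 13 of 14 settings, but most settings kept the reported detection calls and could not change this. The calls were made anew only with outlier spots kept, the gene detection flag, the value table and every spot required. Those of the value table are those of the flag. With every spot required 3 were detected at E11.5 only, without miR-133a. The number with a bound above 1-fold was 3 as reported and ran from 2 with normexp to 4 with no scaling, percentile scaling on every probe and the total gene signal. The log2 bounds of miR-206, miR-133b and miR-1a were 1.88, 1.52 and 0.78 as reported, and median scaling or keeping outlier spots moved them by less than the spot SD. They were 3.20, 2.83 and 2.09 with no scaling, and 3.10, 2.73 and 1.99 with percentile scaling on every probe, and 2.80, 2.43 and 1.69 with control probes. The same bounds were 1.99, 1.55 and 0.87 with quantile normalization, and 4.14, 2.95 and 2.61 with the total gene signal. The same bounds were 2.38, 2.02 and 1.28 with the gene detection flag, and 1.38, 1.01 and 0.27 with every spot required. The same bounds were 2.12, 1.75 and 1.01 with a floor from the negative controls, and 3.69, 3.20 and 2.02 with the value table. With normexp they were 0.74, 0.45 and 0, and with the mean over detected probes, chosen after seeing the data, 1.35 for miR-206 and 0.82 for miR-133b. miR-133a had a log2 bound of 0.27 with the total gene signal, 0.20 with no scaling and 0.10 with percentile scaling on every probe. The causes of these shifts were not tested. Over the array, 12 miRNAs detected at E11.5 only had a bound above 1-fold as reported, 60 with no scaling, 57 with percentile scaling on every probe, 40 with control probes, 35 with the total gene signal, 31 with the value table and 3 with normexp. At least 2-fold were 3 as reported, 19 with no scaling and with the value table, 17 with percentile scaling on every probe, 10 with the total gene signal, 9 with control probes and 1 with normexp. No paired analysis was possible because each stage has 1 array. With 1 array per stage, a slide block could not be fitted. The miR-133a probe that was detected read 35.6 at E11.5, where the lowest detected probe of that array was 29.5.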
